A study of Rattus norvegicus with 4 samples.

Results

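Tubulins and microtubule motors were described in RNA of the injured and the opposite side of the rat brain after intracerebral hemorrhage, a bleeding into the brain. The members were the rows of the deposited RPKM table whose symbol named a numbered alpha, beta or gamma tubulin, a kinesin (Kif), a numbered kinesin light chain (Klc) or a cytoplasmic dynein chain (Dync or Dynl). There were 73 such genes among 17853, and 62 of them reached a mean of 1 RPKM (a read count scaled to gene length and library size) over the libraries. All rats had a hemorrhage, and no library of an uninjured brain is among the groups used here. The groups were ipsilateral and contralateral tissue, that is, the side of the bleeding and the opposite side, at 13 months of age (adult) and at 21 months (old). Each of the 4 groups was 1 library of polyadenylated RNA pooled from several brains. Strain, sex, hemorrhage model, interval since the bleeding and brain region are not stated in the labels.

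Microtubules are hollow polymers of alpha and beta tubulin, nucleated by gamma tubulin, and serve in every cell as tracks for transport. Most kinesins walk towards the plus end of a microtubule, and cytoplasmic dynein walks towards the minus end. In neurons kinesins carry vesicles, mitochondria and receptors along axons and dendrites, whereas another set of kinesins builds the mitotic spindle and separates chromosomes in dividing cells. The genes therefore fall into 10 roles here: alpha, beta and gamma tubulins, mitotic kinesins, neuronal transport kinesins, cilia kinesins, other kinesins, kinesin light chains, and dynein 1 and dynein 2 chains.

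RPKM summed to between 388632 and 402100 over the libraries, and the members took 0.972% and 1.04% of this sum ipsilaterally and 1.11% of it contralaterally at both ages, 13 months first. The read depth is unknown, so values near 0 are the least certain. The 13 month contralateral library stood apart by pineal gland genes, with Tph1, the gene of an enzyme of serotonin synthesis, at 10.4 RPKM and elsewhere at or under 0.44 RPKM. The 21 month ipsilateral library stood apart by low values of a few genes, such as the ribosomal protein gene Rpl37 at 6.79 RPKM against at least 29.1 RPKM elsewhere. It held the lowest of the 4 values for 19 of the 62 members, against 20.8% of all genes. The 13 month ipsilateral library held the lowest value more often, for 24 members, against 3904 of the 12160 genes past the filter. Below, a side ratio is the ipsilateral level over the contralateral level at 1 age, and an age ratio the level at 21 months over that at 13 months on 1 side, each in log2 with 1 RPKM added to both levels. Ratios of single libraries carry no test. As a secondary summary, limma fitted the side over both ages with age as a term, at an adjusted p (Benjamini-Hochberg over the 12160 genes past the filter) under 0.05. Each side then has 2 libraries, so that only 1 degree of freedom, how far the side differs between the ages, measures the spread. Limma draws this spread towards a value shared by all genes fitted, so its small p-values rest mostly on that shared spread.

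The motors and tubulins split by role. Mitotic kinesins were higher on the side of the bleeding at both ages, most neuronal transport kinesins were lower by less than 1 on the log2 scale, and among the tubulins Tubb6, Tuba1c and Tubb2b were higher while the abundant neuronal isotypes were not higher at both ages. At 13 months 12 of the 62 members had a side ratio of at least 1, against 7.19% of all genes, and 0 had a side ratio of -1 or less, against 0.0658%. At 21 months 8 members reached 1, against 5.61% of all genes, and 0 reached -1, against 0.288%. The 8 members past 1 at 21 months were also past 1 at 13 months, where 4.75% of all genes were past 1 at both ages. They were 5 mitotic kinesins, Tubb6, Tuba1c and the dynein light chain gene Dynlt1. In limma 13 members rose on the ipsilateral side, against 13.3% of all genes, and 2 fell, against 0.814%. Of the 13, 8 had a contralateral mean under 1 RPKM and passed the filter only through their ipsilateral values, so that their calls are a description: Tuba1c and 7 mitotic kinesins. The median side ratio of the 62 members was -0.10 at 13 months and -0.02 at 21 months, and the all-gene medians were 0.01 and 0.09. Side ratios were above 0 at both ages in 18 members, against 38.4% of all genes, and below 0 at both ages in 28, against 26.5%. Without overlap between the sides, 17 of the 62 were above ipsilaterally, against 34.4%, and 24 below, against 22.1%. Mitochondrially encoded genes took 18.5% and 20.6% of the RPKM ipsilaterally and 23.3% and 24.1% contralaterally, 13 months first. Scaled to the sum without them, 14 members were above and 32 below, against 26.0% and 34.5% of all genes, and the limma calls were again 13 and 2. No limma call held when genes of all levels were fitted together, where 0 members and 0 of all 17853 genes passed. At an unadjusted limma p below 0.05 that fit had 17 of 73 members with higher and 5 with lower values ipsilaterally. Over all 17853 genes these counts were 2641 and 719. With the 21 month contralateral library in place of the 13 month one, 12 members were again past 1 at 13 months and 0 past -1.

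**Figure D1:**
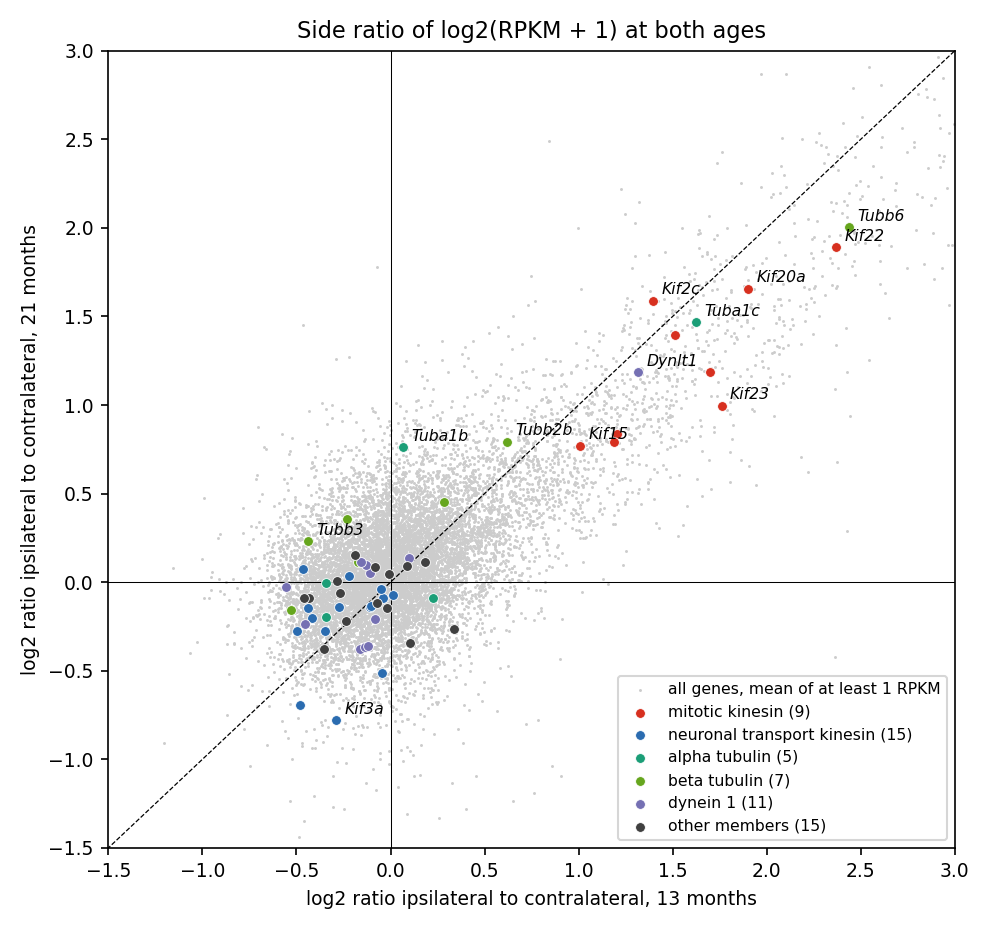
Side ratio (log2, 1 RPKM added) at 13 months (x axis) and 21 months (y axis), each point being 1 gene; grey points are all genes past the filter, colours mark the roles of the 62 members, the dashed line marks equal ratios, and genes past the axis limits are not drawn. The 9 mitotic kinesins lie between 1.01 and 2.37 on the x axis with Tubb6, Tuba1c and Dynlt1 beside them, while the 15 neuronal transport kinesins lie between -0.50 and 0.01.

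Of the 12 mitotic kinesins measured, all 12 had both ipsilateral values above both contralateral ones. Among all 17853 genes, with no filter, 30.3% had this order. Their summed level was 46.0 and 8.16 RPKM at 13 months, ipsilateral first, a 5.63-fold difference, and 28.0 and 5.65 RPKM at 21 months, a 4.95-fold difference. With Kif14, Kif18a and Kif18b, which stayed under a mean of 1 RPKM, the median side ratio over all 12 was 1.30 at 13 months and 0.92 at 21 months. Over the 9 that passed it was 1.51 and 1.18. A mitotic kinesin that is low contralaterally can pass the mean only through its ipsilateral values, so the 9 are not a neutral selection. Roles were chosen with earlier results known, and Kif2a, a microtubule depolymerase placed with the other kinesins, had side ratios of -0.27 and -0.06.

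Kif22 (ENSRNOG00000020281, chromosome 1), a chromokinesin that pushes chromosome arms away from the spindle poles, had the highest level of the group. It had 10.9 RPKM ipsilaterally and 1.31 RPKM contralaterally at 13 months, then 6.13 and 0.92 RPKM at 21 months. Its side ratios were 2.37 and 1.89, and its log2 level rose in limma by 2.13 ± 0.18 (SE, adjusted p = 7.0e-09). The lower of its ipsilateral values was thus far above the higher contralateral one. Kif20a (ENSRNOG00000024428, chromosome 18), which carries the chromosomal passenger complex to the central spindle, had 5.01 and 0.61 RPKM at 13 months, then 3.32 and 0.37 RPKM at 21 months, ipsilateral first. Its side ratios were 1.90 and 1.66. Kif23, the motor of centralspindlin, which organises the central spindle for cytokinesis, had 6.25 and 1.14 RPKM at 13 months and 3.39 and 1.20 RPKM at 21 months. Its side ratio went from 1.76 to 1.0, the widest step between the ages in the group.

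Motors that assemble the spindle followed. Kif11, the bipolar motor that pushes spindle poles apart, had 4.06 and 0.56 RPKM at 13 months, then 1.91 and 0.28 RPKM at 21 months, with side ratios of 1.70 and 1.18. Kif15, which can share that task, had 3.63 and 1.30 RPKM and then 1.78 and 0.63 RPKM, and the lowest side ratios of the 9, 1.01 and 0.77. Kifc1, a minus-end-directed motor that bundles spindle microtubules, had 3.59 and 0.61 RPKM and then 3.47 and 0.70 RPKM. Its ipsilateral level was nearly the same at both ages, and its side ratios were 1.51 and 1.39. Kif2c, which takes apart microtubules at kinetochores, had 2.97 and 0.51 RPKM and then 2.34 and 0.11 RPKM. Its side ratio was larger at 21 months, 1.59 against 1.39. Kif4a, a second chromokinesin, had 2.64 and 0.60 RPKM and then 1.53 and 0.46 RPKM, and Kif20b, a motor of late cytokinesis, had 3.74 and 1.06 RPKM and then 2.09 and 0.73 RPKM. In every one of these genes the ipsilateral and contralateral values did not overlap. In limma the log2 changes of the 9 ran from 0.89 (Kif15) to 2.13 (Kif22). Kif22 and Kif23 had contralateral means above the filter, so they did not pass it through their ipsilateral values alone. With no filter their calls were lost too (limma adjusted p = 0.099 and 0.18). The other 7 passed the filter only through the ipsilateral libraries.

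Among the 3 under the filter, Kif18b, which shortens astral microtubules, had 1.34 and 0.21 RPKM at 13 months, then 1.02 and 0.13 RPKM at 21 months. Kif18a, which aligns chromosomes, had 1.11 and 0.18 RPKM and then 0.66 and 0.07 RPKM, and Kif14, a motor of cytokinesis, had 0.70 and 0.07 RPKM and then 0.33 and 0.05 RPKM. These low values had the same order as the rest of the group.

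**Figure D2:**
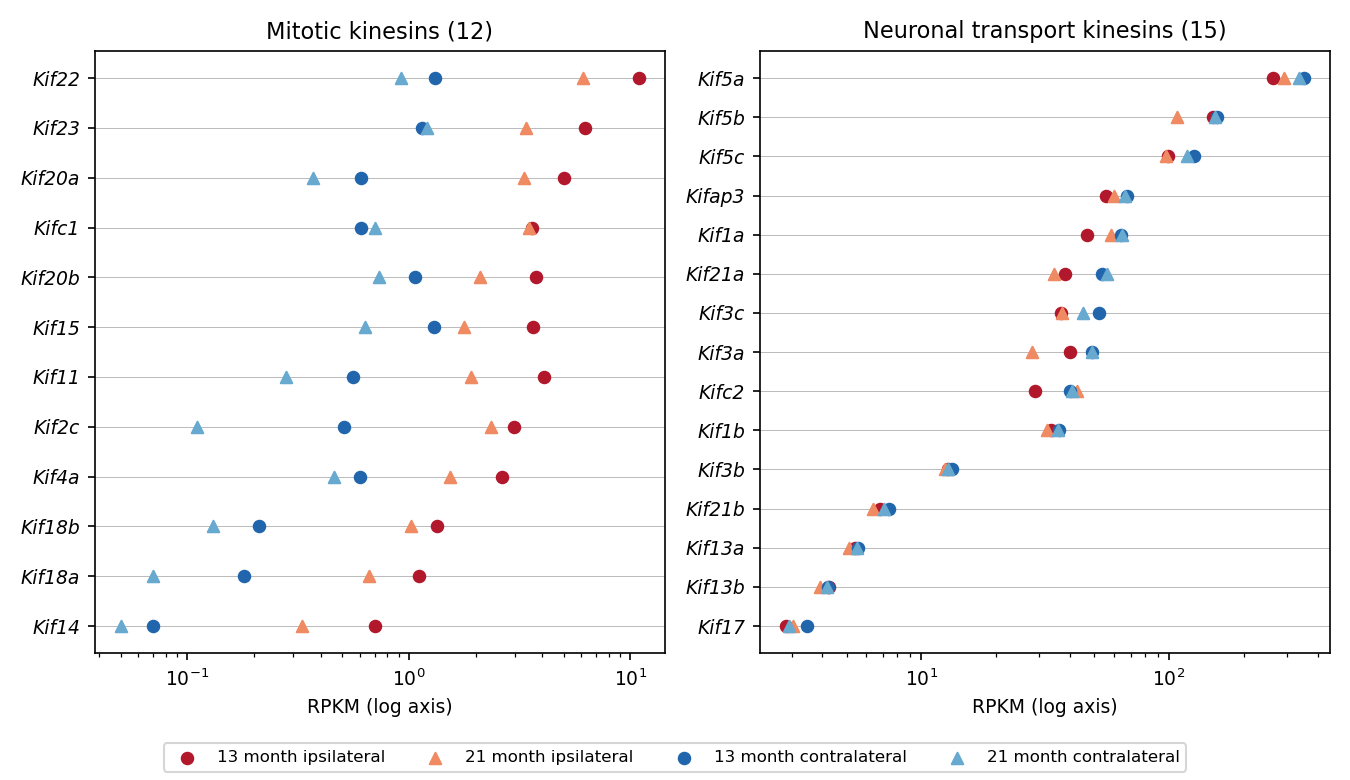
RPKM on a log axis of each of the 12 mitotic kinesins (left) and the 15 neuronal transport kinesins (right), each point being 1 library; red and orange mark the ipsilateral and blue the contralateral side, circles 13 months and triangles 21 months. On the left every ipsilateral point lies to the right of both contralateral points, whereas on the right the points of a gene lie close together, with Kif5a between 262 and 349.9 RPKM.

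Promoters of mitotic genes often carry the CHR element, with the letters TTTGAA, and CCAAT boxes, which are known from the binding of the DREAM and B-MYB-MuvB complexes and of NF-Y. Because the mitotic kinesins were higher together, their promoter windows in RefSeq (build GRCr8, 250 bases before to 50 bases after the start, matched by symbol) were searched for the letters TTTGAA and CCAAT on both strands; neither motif contains the other, though a few letters of both can coincide. Windows were found for 60 of the 73 members, all on the chromosome that the deposited table names. No window was matched for Kif14, Kif5a, Kif21b, Kif13b and Kifc2 among these 2 kinds of kinesin. Of 11 mitotic kinesins 6 held TTTGAA, namely Kif15, Kif20b, Kif22, Kif23, Kif4a and Kifc1, against 18.1% of all 27457 windows. CCAAT was in 7 of the 11, against 37.7%, and both motifs in 5, against 7.25%. Kif2c, Kif18a and Kif18b held neither motif, and their ipsilateral values were also above the contralateral ones without overlap. Over all 60 members 8 held both, the other 3 being Tuba1c, Tubb4b and Kif26b, of which Tubb4b (side ratios -0.17 and 0.12) and Kif26b (-0.11 and -0.01) were not higher without overlap on the ipsilateral side. Of 11 neuronal transport kinesins 0 held TTTGAA and 3 held CCAAT. A match describes letters in a window and not a bound site. The 250 bases before the start are shown for 3 mitotic kinesins with both motifs, for Tuba1c, which held both and is described below, and for the neuronal Kif5c, which held neither; capitals mark TTTGAA and CCAAT or their reverse complements TTCAAA and ATTGG.
Kif22 (chr1:191080879-191081128, minus strand): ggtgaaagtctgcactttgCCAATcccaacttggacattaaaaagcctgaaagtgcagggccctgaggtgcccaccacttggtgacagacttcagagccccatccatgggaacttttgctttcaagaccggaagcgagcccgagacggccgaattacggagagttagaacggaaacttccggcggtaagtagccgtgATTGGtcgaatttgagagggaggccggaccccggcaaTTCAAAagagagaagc
Kifc1 (chr20:5000679-5000928, plus strand): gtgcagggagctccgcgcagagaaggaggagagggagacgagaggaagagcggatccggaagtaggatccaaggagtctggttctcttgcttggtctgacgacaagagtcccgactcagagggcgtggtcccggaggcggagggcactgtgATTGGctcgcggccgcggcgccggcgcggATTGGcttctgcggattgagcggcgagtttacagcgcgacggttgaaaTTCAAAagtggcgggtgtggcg
Kif20b (chr1:241840766-241841015, plus strand): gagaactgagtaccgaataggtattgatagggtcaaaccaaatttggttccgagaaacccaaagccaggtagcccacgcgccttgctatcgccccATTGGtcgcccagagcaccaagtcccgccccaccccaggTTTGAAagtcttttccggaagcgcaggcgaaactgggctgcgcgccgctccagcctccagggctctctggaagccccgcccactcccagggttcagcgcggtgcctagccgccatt
Tuba1c (chr7:132070734-132070983, plus strand): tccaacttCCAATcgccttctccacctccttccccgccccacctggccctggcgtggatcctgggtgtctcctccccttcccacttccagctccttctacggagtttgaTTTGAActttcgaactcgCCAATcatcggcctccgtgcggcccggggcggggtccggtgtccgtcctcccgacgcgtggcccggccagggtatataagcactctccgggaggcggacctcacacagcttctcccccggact
Kif5c (chr3:54441057-54441306, plus strand): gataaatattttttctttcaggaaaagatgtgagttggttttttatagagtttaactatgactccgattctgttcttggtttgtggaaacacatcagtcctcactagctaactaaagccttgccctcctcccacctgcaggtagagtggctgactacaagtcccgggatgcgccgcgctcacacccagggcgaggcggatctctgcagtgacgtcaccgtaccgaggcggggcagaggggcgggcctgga
In Kif22 the TTTGAA letters began 16 bases before the start on the opposite strand, and in Kifc1 22 bases before it. In Kif20b a match began 116 bases before the start, and further matches began at bases 2 and 8 after it, outside the printed stretch. In Tuba1c a match began 141 bases before the start.

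Of the neuronal transport kinesins, none rose on the ipsilateral side in limma, against 13.3% of all genes, and 2 fell, against 0.814%. Their summed level was 19.9% lower there at 13 months and 17.8% lower at 21 months. All 15 passed the filter, and none had a side ratio of 1 or -1 at either age. In 11 of the 15 both ipsilateral values were below both contralateral ones, against 18.9% of all 17853 genes and 22.1% of the genes that passed the filter, and in 0 they were above. The median side ratio was -0.27 at 13 months and -0.14 at 21 months. The median of the mitotic kinesins exceeded it by 1.78 and 1.33, and the ranges of both groups did not overlap at either age, also with the 3 mitotic kinesins under the filter. In all 15 the lowest of the 4 values was in an ipsilateral library, in 6 at 13 months and in 9 at 21 months. An ipsilateral library was lowest for 52.9% of all genes past the filter. The 13 month ratios do not use the 21 month ipsilateral library, but the 13 month one was itself lowest for 3904 of the 12160 genes. The part of single libraries in these ratios was not tested.

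Kinesin-1, the main motor of fast axonal transport, was the most abundant. Kif5a, its neuron-specific heavy chain, had 262 and 349.9 RPKM at 13 months, ipsilateral first, and 291 and 335 RPKM at 21 months, with side ratios of -0.42 and -0.20. Kif5c, also enriched in neurons, had 98.8 and 126 RPKM and then 97.2 and 118 RPKM, with side ratios of -0.35 and -0.28. Kif5b, which most cell types use, had 151 and 156 RPKM at 13 months and 107 and 154 RPKM at 21 months. The ipsilateral values of these 3 genes were thus all below the contralateral ones, and for Kif5b the gap was wider at 21 months, with side ratios of -0.05 and -0.51. Of the summed kinesin-1 heavy chains Kif5a made up 51.2% and 58.7% ipsilaterally and 55.3% and 55.2% contralaterally, 13 months first. Kif5b made up 29.5% and 21.7% ipsilaterally and 24.7% and 25.3% contralaterally. None of the 3 passed in limma.

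The 2 members that fell in limma belong to this role. Kif21a (ENSRNOG00000014844, chromosome 7), a kinesin-4 motor that restrains microtubule growth, had 38.1 and 53.5 RPKM at 13 months, then 34.4 and 56.3 RPKM at 21 months. Its side ratios were -0.48 and -0.69, and it fell by 0.59 ± 0.17 (SE, 2 libraries per side, limma adjusted p = 0.021). Kif3a (ENSRNOG00000007515, chromosome 10), a heavy chain of kinesin-2, which works in axons and in cilia, had 40.0 and 49.1 RPKM at 13 months and 28.0 and 48.8 RPKM at 21 months. Its side ratios were -0.29 and -0.78, and it fell by 0.53 ± 0.18 (limma adjusted p = 0.048). The values of both genes did not overlap between the sides. Both calls were lost with 0.1 RPKM added in place of 1 (limma adjusted p = 0.054 and 0.10). That of Kif3a was also lost when a mean of 5 RPKM was required (0.084) and with a mean-variance trend (0.057).

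Of the other subunits of kinesin-2, Kif3c, a brain-enriched heavy chain, had 36.5 and 52.1 RPKM and then 37.1 and 45.1 RPKM, with side ratios of -0.50 and -0.28. Kif3b, the common partner of Kif3a, had 12.9 and 13.4 RPKM and then 12.5 and 12.8 RPKM, and its sides overlapped. The cargo subunit Kifap3 had side ratios of -0.27 and -0.14. Kif1a, which moves synaptic vesicle precursors, had 46.9 and 63.9 RPKM and then 58.2 and 64.5 RPKM, lower ipsilaterally at both ages. Kif13b, a kinesin-3 motor, had the highest mean of both side ratios in the group, with 4.26 and 4.21 RPKM and then 3.90 and 4.16 RPKM. Kif1b, Kif13a and Kif21b were lower ipsilaterally at both ages by at most 0.14 on the log2 scale. Kif17, a motor of dendritic receptor transport, and Kifc2, a minus-end-directed motor of neurons, had side ratios below 0 at 13 months and of 0.04 and 0.07 at 21 months. Kifc2 had 28.8 and 40.0 RPKM and then 42.7 and 40.6 RPKM, so that its lowest value was the 13 month ipsilateral one. The 21 month side ratio of Kifc2 was -0.02 with median-ratio scaling and -0.04 without mitochondrial genes. All of these missed the limma threshold.

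In bulk tissue fewer cells of a type and less RNA per cell cannot be told apart, and marker genes of cell types moved with these groups. Of 7 proliferation markers matched, 7 had both ipsilateral values above both contralateral ones, and their summed level was 132 and 46.6 RPKM at 13 months and 94.8 and 41.6 RPKM at 21 months, ipsilateral first. Of 8 microglia or macrophage markers all 8 were above, with sums of 667 and 269 RPKM and then 645 and 261 RPKM. Of 8 neuron markers 6 were below and 0 above, with sums of 1112 and 1546 RPKM and then 1198 and 1516 RPKM. Among all 17853 genes, with no filter, 30.3% were above and 18.9% below in this way. The median side ratio of the 7 neuron markers that passed the filter, -0.41 and -0.28, lay below that of the transport kinesins at both ages. The 8 oligodendrocyte markers summed to 2015 and 2401 RPKM at 13 months and to 2734 and 2254 RPKM at 21 months, and the 7 astrocyte markers to 1786 and 1141 RPKM and then 1967 and 1016 RPKM. Without Gfap, the other 6 astrocyte markers summed to 636 and 698 RPKM and then 742 and 676 RPKM. Choroid plexus (5) and endothelial (2) markers had median side ratios of -0.53 and 0.26 at 13 months and of -0.91 and -0.01 at 21 months. Of the 5 choroid plexus markers 4 were below without overlap, and these 4 fell in limma, against 0.814% of all genes. The 2 endothelial genes went opposite ways, Flt1 with side ratios of -0.05 and -0.18 and Cdh5 with 0.57 and 0.17. The 5 ependymal markers matched had medians of 0.01 and -0.08, and the 3 of them that passed the filter -0.14 and -0.44. Pineal gland genes (6) summed to 27.9 RPKM in the 13 month contralateral library and to at most 2.03 RPKM elsewhere, and pituitary genes (4) to between 4.49 and 10.9 RPKM. A library at 0 occurred for Crx and Gh1 among these markers. The part of any of these cell types in the results on motors and tubulins was not tested.

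Mitotic partner genes were mostly higher on the ipsilateral side too. Of 16 genes whose proteins work with mitotic kinesins at spindles and midbodies, 14 had ipsilateral values above the contralateral ones without overlap, against 30.3% of all 17853 genes. Of the 15 that passed the filter 12 were called higher in limma, against 13.3% of all genes, and 1 lower, against 0.814%. Of these 12, 5 (Racgap1, Plk1, Bub1, Bub1b and Ndc80) passed the filter only through their ipsilateral values. The kinetochore gene Ndc80 had 8.32 and 1.03 RPKM at 13 months, then 4.20 and 0.64 RPKM at 21 months. Prc1, which bundles the microtubules that Kif4a binds, had 20.9 and 4.32 RPKM and then 12.4 and 3.56 RPKM. Incenp was above without overlap but missed the limma threshold (side ratios 0.69 and 0.21, adjusted p = 0.11). The exceptions to the order were Cit and Numa1. Cit, a kinase of cytokinesis that neurons express as well, fell in limma, with side ratios of -0.47 and -0.54 (adjusted p = 0.0499), and Numa1, a nuclear protein that anchors dynein at spindle poles, had side ratios of 0.04 and -0.43. The median side ratio of all 16 was 1.51 and 1.16.

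Among the beta tubulins Tubb6 stood highest by side ratio, while the most abundant isotypes differed less. Tubb6 (ENSRNOG00000018371, chromosome 18), the class V isotype, which is low in neurons, had 24.2 and 3.64 RPKM at 13 months, then 18.0 and 3.74 RPKM at 21 months, ipsilateral first. These are 6.64-fold and 4.82-fold differences in RPKM, and it rose in limma by 2.22 ± 0.18 (SE, 2 libraries per side, adjusted p = 3.5e-09). Tubb2b (ENSRNOG00000017445, chromosome 17), an isotype of developing neurons and glia, had 49.5 and 31.8 RPKM and then 46.6 and 26.5 RPKM, and it rose by 0.71 ± 0.17 (limma adjusted p = 0.0049). The class I isotype Tubb5, which most cells use, had 315 and 259 RPKM and then 390.0 and 285 RPKM. Both of its ipsilateral values were above the contralateral ones, but its fitted change of 0.37 did not pass (limma adjusted p = 0.19).

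The isotypes of mature neurons and oligodendrocytes behaved otherwise. Tubb4a, high in myelinating cells and neurons, had 196 and 283 RPKM at 13 months, then 279 and 311 RPKM at 21 months. It was lower ipsilaterally at both ages, with side ratios of -0.53 and -0.16. Tubb3, the class III isotype used as a neuron marker, had 103 and 140 RPKM at 13 months but 157 and 134 RPKM at 21 months. Its side ratios of -0.44 and 0.23 had opposite signs, as had those of Tubb2a (-0.23 and 0.36) and Tubb4b (-0.17 and 0.12). Tubb1, the isotype of platelets and megakaryocytes, stayed at or under 0.06 RPKM. Of the summed beta tubulins Tubb5 made up 39.0% and 37.4% ipsilaterally and 30.4% and 31.8% contralaterally, 13 months first. Tubb6 made up 2.99% and 1.73% ipsilaterally and 0.426% and 0.417% contralaterally, and Tubb4a 24.2% and 26.8% against 33.1% and 34.7%. In both ipsilateral libraries Tubb5 was the leading isotype, and in both contralateral ones Tubb4a was.

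Tuba1c (ENSRNOG00000021438, chromosome 7), an alpha tubulin of many non-neuronal tissues, had 2.98 and 0.29 RPKM at 13 months, then 2.35 and 0.21 RPKM at 21 months. Its side ratios were 1.63 and 1.47. It passed the filter only through its ipsilateral values, so its limma call is a description, and with no filter its adjusted p in limma was 0.087. Tuba1a, the main alpha tubulin of neurons, had 243 and 207 RPKM and then 188 and 200 RPKM, so that its sides overlapped. Tuba1b, expressed in most cells, had 25.2 and 24.0 RPKM at 13 months and 38.9 and 22.6 RPKM at 21 months, a side ratio of 0.07 and then of 0.76. Tuba4a, an isotype that lacks the encoded C-terminal tyrosine, had 91.5 and 116 RPKM and then 119 and 120 RPKM. Tuba8 had 6.34 and 8.32 RPKM and then 8.02 and 9.32 RPKM, with side ratios of -0.34 and -0.19, and Tuba3a stayed at or under 0.05 RPKM. The alpha tubulins together were nearly equal on the sides, at 369 and 357 RPKM and then 356 and 352 RPKM. Tubulin genes are near-identical copies in much of their coding sequence, and no label says how reads shared between them were counted, so the split between isotypes is uncertain.

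**Figure D3:**
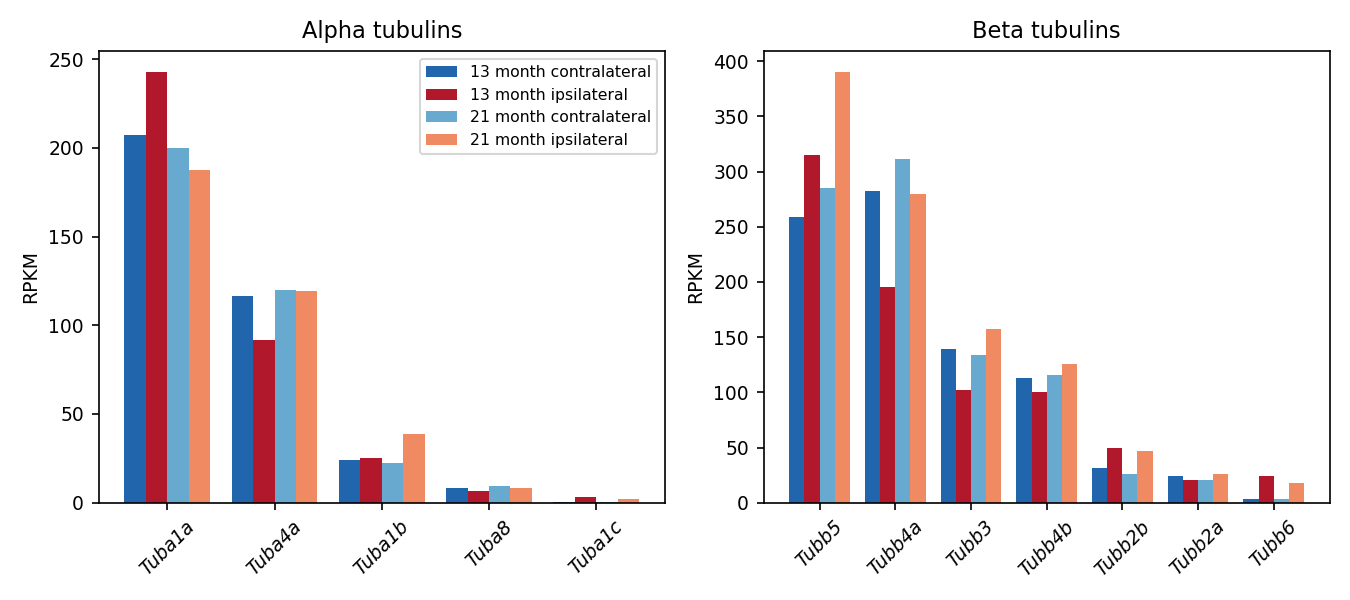
RPKM of the 5 alpha (left) and 7 beta (right) tubulin genes past the filter, 1 bar per library, blue for the contralateral and red or orange for the ipsilateral side, from 0 on a linear axis; single libraries carry no error bars. Tubb5 stands above its contralateral bars at both ages (315 and 390.0 RPKM), Tubb4a lies lower ipsilaterally, and Tubb6 is visible on the ipsilateral side at 24.2 and 18.0 RPKM.

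Gamma tubulins, which nucleate microtubules, and the kinesin light chains, which link kinesin-1 to its cargo, were not among the members that passed in limma. Tubg1 had 15.3 and 16.3 RPKM at 13 months, then 17.8 and 16.7 RPKM at 21 months, and Tubg2 at 4.30 and 6.15 RPKM and then 6.19 and 6.64 RPKM. The sides of both genes overlapped. Klc1, the light chain of neurons and the third highest member by mean level, had 304 and 389 RPKM and then 274 and 356 RPKM. It was lower ipsilaterally at both ages, with side ratios of -0.35 and -0.38. Klc2 had 42.0 and 58.3 RPKM and then 52.4 and 55.8 RPKM, also without overlap, whereas Klc4 had 8.29 and 7.74 RPKM and then 9.38 and 8.75 RPKM. Klc3 stayed at or under 0.89 RPKM.

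Of the 11 chains counted with dynein 1, the minus-end motor of the cytoplasm, 1 rose in limma, against 13.3% of all genes, and 6 had both ipsilateral values below the contralateral ones, against 22.1%. Dynlt1 (ENSRNOG00000018207, chromosome 1), a Tctex-type light chain that binds cargo, had 10.6 and 3.67 RPKM at 13 months, then 11.4 and 4.46 RPKM at 21 months, ipsilateral first. Its side ratios were 1.32 and 1.18, and it rose by 1.25 ± 0.17 (SE, 2 libraries per side, limma adjusted p = 8.3e-06). The related Dynlt3 went the other way, with 53.7 and 58.4 RPKM and then 44.2 and 57.0 RPKM. The highest chain by level was Dynlrb1, a roadblock-type light chain, with 440.4 and 482 RPKM at 13 months and 532 and 498 RPKM at 21 months, and its sides overlapped. Of the LC8-type light chains Dynll1 had 329 and 356 RPKM and then 347 and 335 RPKM. Dynll2, the other LC8-type chain, had 254 and 348 RPKM and then 292 and 344 RPKM, lower ipsilaterally at both ages. The intermediate chain gene of neurons, Dync1i1, had 36.1 and 53.5 RPKM and then 48.7 and 49.7 RPKM, with side ratios of -0.55 and -0.03. Dync1i2, the intermediate chain of most cells, had 80.0 and 74.7 RPKM and then 80.9 and 73.5 RPKM. The motor subunit itself, Dync1h1, had 8.0 and 9.08 RPKM and then 7.23 and 9.70 RPKM. Its values and those of the light intermediate chains Dync1li1 and Dync1li2 were lower ipsilaterally at both ages, by at most 0.38 on the log2 scale.

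Dynein 2, which returns cargo within cilia, differed little. Dync2h1 was listed at 1.39 and 1.51 RPKM and then 1.59 and 1.81 RPKM, and Dync2li1 at 14.1 and 14.2 RPKM and then 16.6 and 16.1 RPKM. Among the cilia kinesins Kif7, a regulator of Hedgehog signalling in cilia, had 2.25 and 1.86 RPKM and then 2.34 and 2.09 RPKM, above at both ages. Kif27 had 3.24 and 3.99 RPKM and then 2.91 and 3.55 RPKM, below at both ages. Kif9 (1.70 and 1.51 RPKM, then 1.11 and 1.68 RPKM) and Kif19 (0.78 and 1.03 RPKM, then 1.36 and 1.12 RPKM) changed order between the ages. Kif6 and Kif24 stayed under the filter, at or under 1.04 RPKM. The other kinesins were Kif1c, Kif2a, Kifc3 and Kif16b, with Kif26a, Kif26b and Kif28p at or under 1.02 RPKM. Kif1c, a transport motor of many cell types, had 66.5 and 67.5 RPKM and then 62.7 and 69.5 RPKM. Kif2a, which like Kif2c takes apart microtubules but was not listed as mitotic, had 24.0 and 29.1 RPKM and then 25.5 and 26.6 RPKM. Both genes were lower ipsilaterally without overlap. Kifc3 had 8.99 and 11.2 RPKM and then 11.8 and 11.7 RPKM. Kif16b, a motor of early endosomes, had 3.82 and 2.82 RPKM at 13 months and 2.39 and 3.07 RPKM at 21 months. None of the members in these roles passed in limma.

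**Figure D4:**
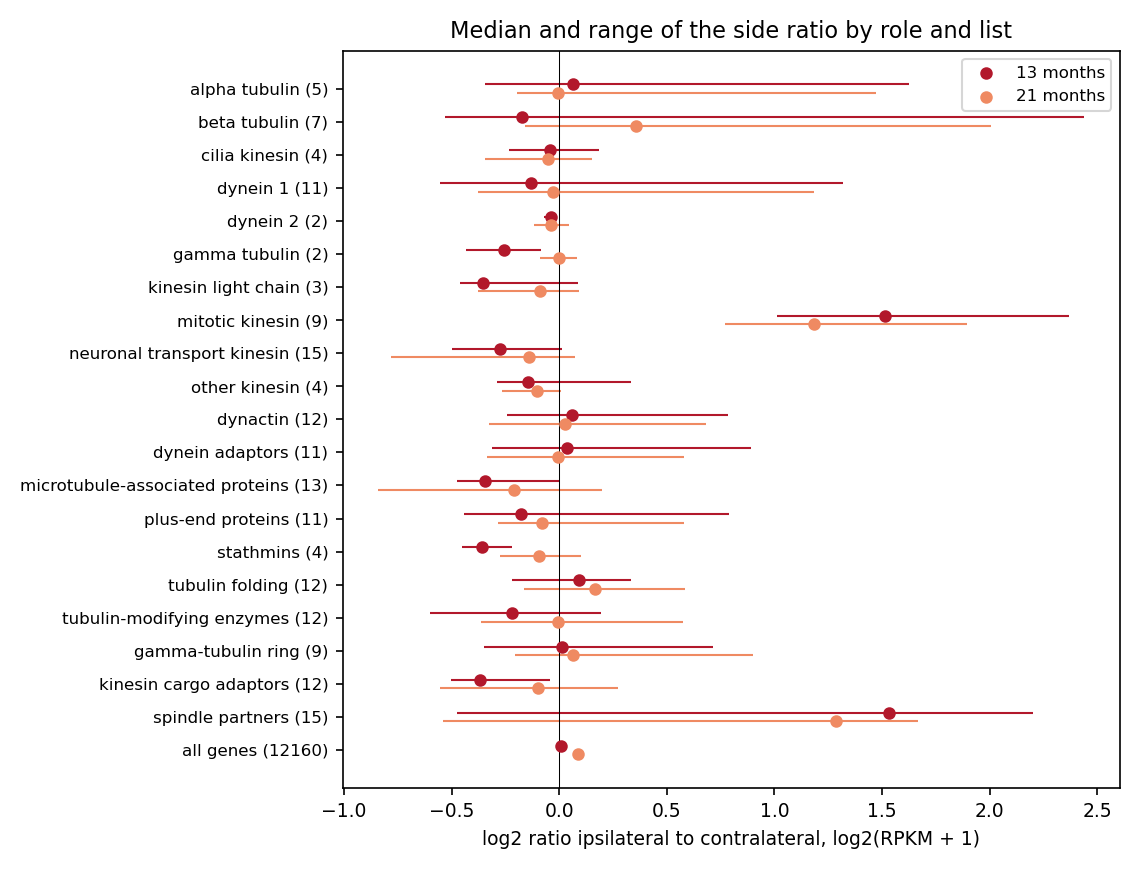
Side ratio on the log2 scale for the 10 roles of the members and 10 further lists of microtubule genes, dark red for 13 and orange for 21 months; points are medians, lines run from the lowest to the highest gene that passed a mean of 1 RPKM, and numbers in brackets count these genes, with the median of all genes at the bottom. Mitotic kinesins (1.51 and 1.18) and spindle partners (1.53 and 1.29) lie to the right of 1, and no other role or list has a median above 0.36.

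Of 9 further lists of genes that regulate tubulin and its motors, 5 had median side ratios between -0.37 and -0.18 at 13 months and 4 between 0.01 and 0.09. At 21 months all 9 medians lay between -0.21 and 0.17. The counts of these lists stand against 13.3% of all genes that rose and 0.814% that fell in limma. Of 12 dynactin subunits, the cofactor of dynein, 2 rose in limma and 0 fell: Capza1 (side ratios 0.78 and 0.68) and Capzb (0.54 and 0.52), which also cap actin filaments. Dctn1 (-0.24 and -0.17) and Dctn3 (0.13 and -0.33) were the lowest. Of 11 dynein adaptors Spdl1 (0.89 and 0.49), which recruits dynein to kinetochores, and Nde1 (0.70 and 0.58), which acts with dynein in mitosis, rose, and 0 fell, with Bicd1 (-0.31 and -0.33) and Pafah1b1 (-0.14 and -0.06) lowest.

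The 13 microtubule-associated proteins, many of them axonal or dendritic, had median side ratios of -0.34 and -0.21, and 9 were below on the ipsilateral side without overlap, against 22.1% of all genes. Map7d2, a partner of kinesin-1 in axons, fell in limma (-0.45 and -0.84), followed by Map9 (-0.35 and -0.67), while Map1s (-0.09 and 0.20) and Map4 (-0.01 and 0.08) were highest. Of 12 kinesin cargo adaptors Jakmip1 fell (-0.50 and -0.55) and 0 rose, and the median was -0.37 and -0.10, with Fez1 (-0.50 and -0.10) also low and Rhot1 (-0.04 and 0.02) and Rhot2 (-0.44 and 0.27) highest. The 4 stathmins, which bind free tubulin, had 0 calls and medians of -0.36 and -0.09, from Stmn1 (-0.36 and 0.10) and Stmn3 (-0.45 and 0.03) to Stmn2 (-0.36 and -0.28) and Stmn4 (-0.22 and -0.22). The neuron markers above were lower on the same side. They include Map2 and Stmn2, which are also on the lists of microtubule-associated proteins and stathmins, and their part in these 3 lists was not tested.

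Of 11 proteins of microtubule ends Mapre1, the plus-end tracker EB1 of most cells, rose (0.79 and 0.58) and 0 fell, with Mapre2 (-0.18 and 0.39) next and Camsap2 (-0.28 and -0.29) and Camsap1 (-0.33 and -0.08) lowest. Of 9 genes of the gamma-tubulin ring Mzt2b rose (0.48 and 0.90) and 0 fell, with Cdk5rap2 (0.71 and 0.14) next and Mzt1 (-0.35 and -0.20) and Tubgcp6 (-0.20 and -0.13) lowest. Tubulin folding factors had 0 calls among 12 genes and medians of 0.09 and 0.17, from Cct2 (0.19 and 0.33) and Cct4 (0.26 and 0.24) to Tbce (-0.03 and -0.12) and Cct7 (0.08 and -0.16). Enzymes that modify tubulin also had 0 calls among 12, with medians of -0.22 and 0.00, Vash1 (0.19 and 0.57) and Ttll12 (0.16 and 0.33) highest, and Agtpbp1 (-0.33 and -0.36) and Ttll7 (-0.36 and -0.29) lowest.

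The ages were compared on each side. The contralateral comparison shares its libraries with the side comparisons, so each is given by its own values. Age ratios were above 0 on both sides in 18 members, against 20.7% of all genes, and below 0 on both sides in 21, against 25.5%. Of the 62 members 0 had an age ratio of at least 1 and 0 of at most -1 on either side, against 0.206% and 0.132% of all genes contralaterally and 0.321% and 0.658% ipsilaterally. Mitotic kinesins were lower at 21 months: 10 of 12 contralaterally, against 52.2% of all 17853 genes, and 12 of 12 ipsilaterally, against 44.2%, had an age ratio below 0, and the sums above correspond to 30.8% less contralaterally and 39.1% less ipsilaterally. Of the 9 that passed the filter 7 were below 0 on both sides. Kif15 (-0.50 contralaterally and -0.74 ipsilaterally), Kif11 (-0.29 and -0.80) and Kif22 (-0.27 and -0.74) had the lowest age ratios of the members by the mean of both sides. The highest were those of Dynlrb2 (0.29 and 0.56), a dynein light chain known from cilia, Tubb4a (0.14 and 0.51) and Kifc2 (0.02 and 0.55). Dynlrb2 had 4.14 and 4.74 RPKM at 13 months, ipsilateral first, and 6.59 and 6.02 RPKM at 21 months. For Tubb4a and Kifc2 the 13 month ipsilateral library was the lowest of the 4, and the other 3 were closer together. With 1 library per age and side these differences have no replicate check, and no test of the age was made.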

How the data were processed

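RPKM values were deposited by the authors for 17853 genes in 4 libraries, rounded to 2 decimals. Per the submitters' processing notes, cutadapt, TopHat2 and edgeR were used, with no version or role named; the same notes list GRCh38, a human build, although the table carries rat Ensembl gene IDs, and it is unsettled which build the values rest on. Read counting, gene lengths and depth are not given. Total RNA of several brains was pooled before library preparation, per the labels' protocols. Whether both sides came from the same rats is not stated.

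Values were analysed as log2(RPKM + 1), which understates changes of low genes, where the mean reached 1 RPKM (12160 genes). Limma 3.58.1 (R 4.3.3) fitted side and age, two-sided, with eBayes. It was also run on simulated data in which all genes had the same spread, which cannot check the p-values of these libraries. The p-values of limma measure only the spread between pooled libraries. Through eBayes this spread comes mostly from all genes fitted together and little from the single gene. Among 195 rows that shared a symbol, the highest by mean kept it and the others went by gene ID; no member was among them. Members, roles and lists were chosen with earlier results of these data known. Values in every library were given for members past a log2 ratio of 1, mitotic kinesins past the filter, the 3 highest by level and the 2 highest and 2 lowest by side ratio of each role, and the 3 highest and 3 lowest by age ratio. Further members were picked after their values were seen. In the other lists the 2 highest and 2 lowest were named. Promoter windows came from RefSeq (GRCr8).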

Additional observations from a re-analysis of the deposited data

Results flagged for a closer look

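For 3 members the side ratio had opposite signs at the 2 ages, with both values larger than 0.18, the SD over all genes of the contralateral age ratio. Tubb3 had -0.44 at 13 months and 0.23 at 21 months. Tubb2a had -0.23 and 0.36, and Kif16b had 0.34 and -0.26. With 1 library per age and side, the difference between the ages was not tested.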

How the results depend on the processing

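Of the counts and medians recomputed under alternatives, 84 stayed within 1.5 times the reported count or within 0.18 of the reported median, 14 moved further, and 7 counts of limma calls or of sides without overlap became smaller by more than 1.5 times. Of the side ratios of single members 530 stayed within 0.18, and 24 moved further, all with 0.1 RPKM added. Of the 530, 98 with no filter, 64 with a mean of 5 RPKM and 98 with shared symbols summed could not change. A filter leaves a gene's ratio as it is, and no member shared a symbol. For the same reason summing shared symbols could change only the limma calls among the counts and medians. Ratios near 0 changed sign under scaling: 5 with median-ratio scaling (Dync2li1, Dynll1, Kifc2, Kifc3 and Tubg1 at 21 months) and 11 without mitochondrial genes (the same 5, Dynlrb1 and Klc4 at 21 months, and Dync1i2, Kif13b, Klc4 and Tuba1b at 13 months). Each of these was reported at 0.10 or less. Median-ratio scaling put 17 members above and 29 below, against 30.6% and 28.1% of all genes. The neuronal transport kinesins below without overlap were 13 with it and 14 without mitochondrial genes, in place of 11. The share of all genes below was higher in these settings too, at 28.1% and 34.5% in place of 22.1%. With 0.1 RPKM added in place of 1, 12 members in place of 8 were past 1 at 21 months. The mitotic kinesins then exceeded the neuronal transport kinesins by 2.64 and 2.30 in median side ratio. In that setting 0 members fell in limma, against 102 of 12160 genes, and 1 member was past -1 in each age comparison. With no filter the medians differed by 1.57 and 1.06, and limma called 0 higher and 0 lower. With a mean of 5 RPKM required, 44 members and 8018 genes were left, and 2 members were past 1 at each age. In limma 3 of these members rose, against 841 of all genes, and 1 fell, against 40. On the ipsilateral side 6 lay above without overlap in place of 17, against 32.0% of all genes. No mitotic kinesin passed this filter, so their median had no value. With a threshold of 0.5, 2 members were lower at 13 months, 14 were higher and 3 lower at 21 months, and 5 were higher and 8 lower in the ipsilateral age comparison. Shares of all genes past the threshold in these alternative settings are not given, so these member counts are only a description. Chosen after seeing the data, a mean-variance trend left 1 member that fell, and the 21 month contralateral library in place of the 13 month one gave a median difference of 1.97. Leaving out a library leaves no residual degree of freedom and was not run. Age is a term of the limma fit, so each ipsilateral library was set against the contralateral one of its age; the labels carry no replicate numbers for any further block. The read depth is unknown, so the precision of mitotic kinesins under 1 RPKM cannot be stated.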
